A study of Cucumis sativus with 6 samples.

Results

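Gene expression in cucumber fruit flesh was compared between 6 and 3 days after self-pollination, the first interval of flesh development in a series of 6 RNA-seq libraries. The 2 libraries compared, of the 6 in all, were flesh at day 6 and flesh at day 3 of Cucumis sativus inbred line YB. The other 4 libraries, of flesh at day 9 and of peel at days 3, 6 and 9, came from the same line and were used for comparison. Its title names candidate genes for astringency as the aim, and no other treatment or genotype was named. Each library was made from 3 mixed fruits, with 1 library for each tissue and day, so the difference between the days has no replicate check and carries no p-value. Levels were the deposited FPKM values (sequenced fragments per kilobase of a gene, corrected for how many mapped in that library). Each gene was described by log2 of the ratio of FPKM + 1 at day 6 to FPKM + 1 at day 3, which understates the difference of low genes. Of the 21317 genes in the table, 17097 (80.2%) had at least 1 FPKM in either flesh library and were described.

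Young cucumber fruit passes from a phase of cell division around pollination into a phase in which flesh cells enlarge. Enlarging cells loosen their walls with expansins and xyloglucan-modifying enzymes, fill their vacuoles with the help of proton pumps, and draw on sugars delivered by the phloem. Auxin is a main growth signal of this period, and jasmonates, made from fatty acids by lipoxygenases and allene oxide enzymes, act in wound and defence responses and also in flower and fruit development.

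The reads assigned to genes, recovered from the deposited count columns, numbered 23740219 in day 6 flesh and 23599019 in day 3 flesh, and 14899922 to 20999942 in the other 4 libraries. The median gene differed by 0.01 on the log2 scale between the flesh libraries, with a standard deviation over genes of 0.70, and 15149 genes (88.6%) differed by less than 2-fold. At least 4-fold higher at day 6 were 101 genes (0.591% of those described), and at least 4-fold lower were 268 genes (1.57%). At the 2-fold bound, which is used below for gene lists, 707 genes (4.14%) were higher and 1241 (7.26%) lower. Genes lower at day 6 thus outnumbered those that were higher at both bounds. The list counts below are to be set beside these shares, since more lower than higher members is also the pattern of all genes. With a pseudocount of 0.1 FPKM in place of 1 the 4-fold counts were 258 higher and 553 lower, and at 5 FPKM 29 higher and 95 lower. Among those past 4-fold, 26 higher and 46 lower ones were listed without a product name.

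**Figure D1:**
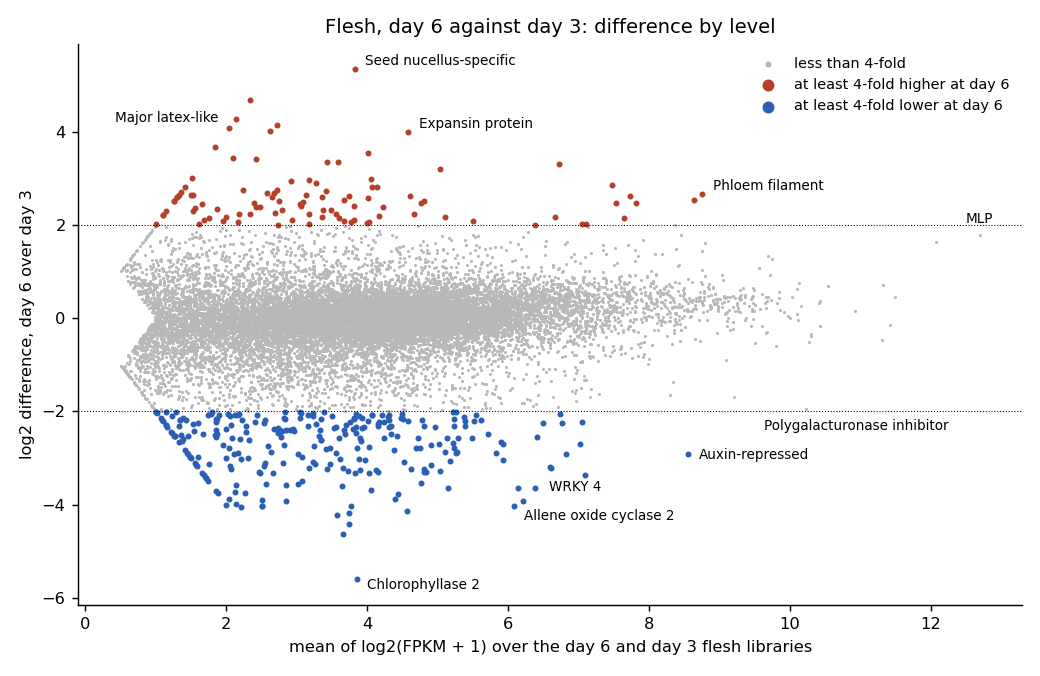
Log2 difference between flesh at day 6 and at day 3 (vertical axis, log2 of FPKM + 1) against the mean level in both libraries (horizontal axis, log2 of FPKM + 1), with 1 point per gene. Red points are the 101 genes at least 4-fold higher at day 6, blue points the 268 genes at least 4-fold lower, and dotted lines mark 4-fold.

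Wall-loosening genes were among those with the largest differences towards day 6. Expansin protein Csa5G636630, of a family that loosens cell walls without cutting them, had 94.1 FPKM at day 6, against 5.01 FPKM at day 3, and 178 FPKM in flesh at day 9. Expansin Csa6G014540 had 477 FPKM at day 6, against 65.5 FPKM at day 3. The family differed in both directions: of 15 expansins described, 2 (13.3%) were at least 2-fold higher and 4 (26.7%) at least 2-fold lower, with a median log2 difference of -0.03. Their sum was 1382 FPKM at day 6 and 880 FPKM at day 3. Expansin 1 (Csa5G182120) was among the lower ones, with 8.80 FPKM at day 6 and 29.5 FPKM at day 3. In peel, Csa5G636630 and Csa6G014540 were also higher at day 6, with 274 against 45.1 FPKM and 56.6 against 10.5 FPKM at day 3. The 15 expansins had a median of 0.64 in peel, where 6 were at least 2-fold higher and 1 lower.

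Other wall genes were likewise divided. Pectate lyase Csa3G133180, which cuts pectin, had 265 FPKM at day 6, against 64.9 FPKM at day 3, and the 77 pectin-modifying genes had 12 members at least 2-fold higher and 7 at least 2-fold lower. Polygalacturonase-inhibitor protein Csa4G154320, which blocks fungal pectin-cutting enzymes, was among the lower ones, with 613 FPKM at day 6, against 2366 FPKM at day 3. Xyloglucan endotransglucosylases, which cut and rejoin the xyloglucan chains of the wall, had a median log2 difference of -0.84 over 16 members, of which 2 were at least 2-fold higher and 7 lower. That median depended on the filter, with -0.03 for all listed genes, -1.15 for those with at least 5 FPKM, and -0.47 at a pseudocount of 5 FPKM. The most abundant lower member, Csa7G044980, had 177 FPKM at day 6 and 560 FPKM at day 3, while Csa3G845490 had 510 FPKM at day 6 and 231 FPKM at day 3. Fasciclin-like arabinogalactan protein 19 (Csa7G031660), a wall glycoprotein, had 371 FPKM at day 6 and 134 FPKM at day 3. The family of arabinogalactan and proline-rich wall proteins had 9 members at least 2-fold higher and 7 lower, of 58.

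Small auxin-induced genes were higher at day 6 as a group. Of 31 genes named as SAUR or auxin-induced 6B proteins (early auxin response genes, a list formed after the values were seen), 16 were at least 2-fold higher and 0 at least 2-fold lower, with a median log2 difference of 1.09. Auxin-induced protein 6B Csa7G007930 had 45.6 FPKM at day 6, against 4.92 FPKM at day 3. SAUR-like Csa2G258750 had 43.5 FPKM at day 6 and 5.31 FPKM at day 3, and was back at 1.76 FPKM in flesh at day 9. The 16 members on chromosome 2 lay between positions 12495402 and 12600044 of the deposited table, whose genome build is not given in the sources used here, and 12 of them were at least 2-fold higher. On chromosome 7, 4 of 7 members were at least 2-fold higher, while on chromosomes 3, 5 and 6, with 5, 1 and 2 members, 0 were. Most of the list was low: its most abundant member, Csa2G258100, had 289 FPKM at day 6 and 187 FPKM at day 3, a difference of less than 2-fold. Neighbours of 1 product name may have shared reads if their sequences are alike, which was not measured here, so their single values are uncertain.

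The wider auxin list of 135 genes had 27 members at least 2-fold higher and 11 lower. Auxin-induced protein 5NG4 (Csa2G251520) had 1327 FPKM at day 6, against 553 FPKM at day 3. Auxin-repressed protein Csa6G518000, of a family whose transcripts auxin lowers in strawberry, had 136 FPKM at day 6, against 1036 FPKM at day 3, and 906 FPKM at day 9. This gene was low at day 6 in flesh, between higher values at days 3 and 9. RADIALIS (Csa7G169070), a MYB-related factor known from flower asymmetry in snapdragon, had 24.2 FPKM at day 6 and 2.22 FPKM at day 3.

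Abundant genes of the phloem exudate were higher at day 6. Phloem filament protein, also called PP1, and the lectin phloem protein 2 are the main proteins of cucurbit phloem sap. Phloem filament protein Csa7G222880 had 1084 FPKM at day 6, against 172 FPKM at day 3, and Csa7G067350 had 1304 FPKM at day 6 and 517 FPKM at day 3. The largest factor among them was that of Csa7G222870, with 332 FPKM at day 6 and 32.5 FPKM at day 3. Phloem protein 2 (Csa1G542510) had 525 FPKM at day 6, against 84.8 FPKM at day 3, and F-box protein PP2-B1 (Csa7G056500) had 952 FPKM at day 6 and 165 FPKM at day 3. Sieve element occlusion protein 1 (Csa2G196890, named after its values were seen), of a family known for plugging wounded sieve tubes in legumes, had 24.0 FPKM at day 6 and 4.04 FPKM at day 3. Of 28 phloem and vascular genes, 11 were at least 2-fold higher and 0 at least 2-fold lower, and the list summed to 5064 FPKM at day 6, against 1535 FPKM at day 3. In flesh at day 9 the sum was 18166 FPKM. Most of these sums came from phloem filament proteins, a list formed after the values were seen. They summed to 3843 FPKM at day 6, 1002 FPKM at day 3 and 13888 FPKM at day 9, and 6 of the 7 described were at least 2-fold higher at day 6. The list sums therefore say little about the other phloem and vascular genes. In bulk tissue, a different share of phloem cells and a different amount of RNA per cell cannot be told apart.

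The most abundant transcript of day 6 flesh was the gene listed as MLP (Csa3G172370), with 12298 FPKM at day 6, against 3565 FPKM at day 3. It was 1.95% of all FPKM of the day 6 library. Major latex-like protein Csa3G171870, of a family that binds small hydrophobic molecules, had 23.6 FPKM at day 6 and 0.532 FPKM (6 reads) at day 3, and 88.9 FPKM in flesh at day 9. Of the 6 major latex-like proteins described, 3 were at least 2-fold higher and 0 lower. The 14 kDa proline-rich protein DC2.15 (Csa5G161900) had 774 FPKM at day 6 and 253 FPKM at day 3, and Gibberellin-regulated protein Csa3G826660 had 1088 FPKM at day 6 and 519 FPKM at day 3.

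Genes of sugar handling differed in both directions, and those of the vacuolar proton pumps by less than 2-fold. Acid beta-fructofuranosidase Csa5G174590, an invertase that splits sucrose, had 157 FPKM at day 6, against 53.1 FPKM at day 3, and Invertase inhibitor Csa6G080370 had 59.5 FPKM at day 6 and 8.84 FPKM at day 3. Sucrose phosphate synthase Csa1G224890 had 74.7 FPKM at day 6 and 28.8 FPKM at day 3. In contrast the putative sugar transporter Csa2G245410 had 9.78 FPKM at day 6 and 63.2 FPKM at day 3, and Bidirectional sugar transporter N3 Csa1G001300, named after its values were seen, had 1.75 FPKM at day 6 and 17.2 FPKM at day 3. Of the 78 sugar genes, 9 were at least 2-fold higher and 5 lower, with a median log2 difference of 0.13. The 15 vacuolar proton pump genes had a median log2 difference of 0.65 with no member past 2-fold. Their most abundant member, V-type proton ATPase proteolipid subunit Csa2G365650, had 601 FPKM at day 6 and 383 FPKM at day 3. The 153 cytosolic ribosomal protein genes had a median of 0.34, with 2 members at least 2-fold higher and 1 lower.

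Among genes with a product name and at least 5 FPKM, a nucellus gene was higher at day 6 by the largest factor. Seed nucellus-specific protein Csa6G109680, named for the tissue around the embryo sac of the ovule, had 89.1 FPKM at day 6, against 1.23 FPKM at day 3, and 0.597 FPKM in flesh at day 9. A second gene of that name, Csa3G630260, had 530 FPKM at day 6, against 94.7 FPKM at day 3, and 1.65 FPKM at day 9. Both were at or under 0.960 FPKM in every peel library, so their transcripts peaked in the day 6 flesh library. Beside them, the 43 seed and ovule genes had 5 members at least 2-fold higher and 3 lower, and the list summed to 3351 FPKM at day 6 and 2912 FPKM at day 3. The part of seed tissue in these values was not tested.

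**Figure D2:**
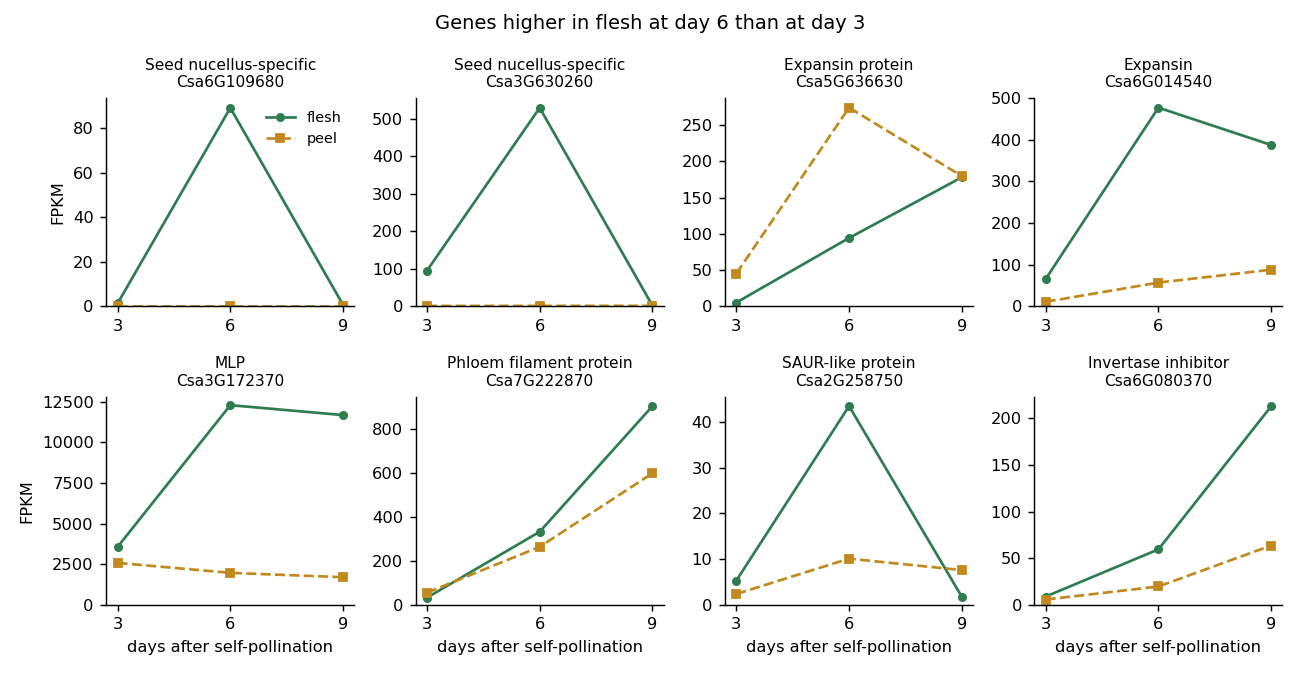
FPKM of 8 genes that were higher in flesh at day 6 than at day 3, against days after self-pollination, with 1 point per library (solid line, flesh; dashed line, peel). Both nucellus genes and SAUR-like Csa2G258750 were highest at day 6 in flesh and low again at day 9, while the phloem filament and invertase inhibitor genes were higher still at day 9.

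Further genes that were higher by large factors were mostly low at day 3. Thioredoxin Csa5G190490, of a family of small redox proteins, had 26.7 FPKM at day 6 (119 reads) against 0.567 FPKM at day 3 (3 reads), a ratio of 47.0 with an exact 95% counting interval of 15.7 to 231. S-RNase Csa5G636520 had 13.1 FPKM at day 6 and 0.296 FPKM at day 3. Peroxidase Csa4G285740 had 98.8 FPKM at day 6 and 9.79 FPKM at day 3, and the NADP-dependent D-sorbitol-6-phosphate dehydrogenase Csa7G007820 had 11.2 FPKM at day 6 and 0.815 FPKM at day 3. The remaining ones, a lactoylglutathione lyase (Csa1G062880), a metal ion binding protein (Csa3G185150) and Csa1G471460, lay between 16.1 and 33.4 FPKM at day 6. Counting intervals cover counting error only.

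Among the genes lower at day 6, the largest named difference was that of Chlorophyllase 2 (Csa5G470560), an enzyme that removes the phytol tail of chlorophyll. It had 1.07 FPKM at day 6, against 99.6 FPKM at day 3, and 0.160 FPKM at day 9. ABC transporter G family member Csa3G446120, of a family that exports lipids and hormones, had 1.53 FPKM at day 6 and 62.0 FPKM at day 3. Acid phosphatase-like protein Csa2G000730 had 4.65 FPKM at day 6 and 98.7 FPKM at day 3. Defensin D2 (Csa2G340400), a small antimicrobial peptide, had 18.1 FPKM at day 6 and 290 FPKM at day 3. It differed from Defensin protein 1 (Csa5G114570), which had 656 FPKM at day 6 and 164 FPKM at day 3, so members of that peptide class differed in both directions. The rRNA N-glycosidase Csa5G428440, of a class of toxic proteins that disable ribosomes, had 0.110 FPKM at day 6 and 16.6 FPKM at day 3. The CBS domain-containing protein Csa7G073520 had 2.15 FPKM at day 6 and 56.0 FPKM at day 3, and 62.5 FPKM at day 9.

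Jasmonate genes were lower at day 6 as a group. All 21 genes named as allene oxide synthases and cyclases, 12-oxophytodienoate reductases, and JAZ or TIFY proteins had negative log2 differences, and 12 were at least 2-fold lower, with a median of -1.35 (a list formed after the values were seen). Allene oxide cyclase 2 (Csa5G366670), which makes the jasmonate precursor, had 15.8 FPKM at day 6, against 271 FPKM at day 3. Allene oxide synthase Csa2G360780 had 60.2 FPKM at day 6 and 155 FPKM at day 3, and 12-oxophytodienoate reductase 3 (Csa1G595890) had 31.6 FPKM at day 6 and 106 FPKM at day 3. Among these 3 enzymes the cyclase gene differed most. The JAZ proteins repress jasmonate responses and are themselves induced by the hormone. Jasmonate ZIM domain protein j (Csa1G435720) had 1.75 FPKM at day 6 and 50.1 FPKM at day 3, and Protein TIFY Csa1G597690 had 30.9 FPKM at day 6 and 297 FPKM at day 3. The 21 genes summed to 622 FPKM at day 6 and 2075 FPKM at day 3, and to 1756 FPKM in flesh at day 9. The day 6 sum was thus the lowest of these 3. Since the list was formed after the values were seen, a higher sum at day 9 may follow in part from that choice and is given as a description.

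Lipoxygenases, which oxidise fatty acids at the start of that pathway and of the pathway to fruit aroma aldehydes, were split. Of 16 members, 4 were at least 2-fold higher and 7 lower, and the list summed to 1117 FPKM at day 6 and 975 FPKM at day 3. Lipoxygenase Csa2G023940 had 41.8 FPKM at day 6, against 436 FPKM at day 3, and Csa7G449420 had 9.03 FPKM at day 6 and 124 FPKM at day 3. In contrast Csa2G023900 had 422 FPKM at day 6 and 94.3 FPKM at day 3, and Csa2G023910 had 431 FPKM at day 6 and 135 FPKM at day 3, on 106 and 52 reads. The direction of the list sum turned on such single genes. Without Csa2G023910 alone it would be lower at day 6 than at day 3. The genes on chromosome 2 with this product name lie close together, and their single values are uncertain in the same way.

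Among stress-linked transcription factors, more genes were lower than higher at day 6, beside 7.26% lower and 4.14% higher of all genes described. WRKY factors, which act in defence, had 12 of 45 members (26.7%) at least 2-fold lower and 1 (2.22%) at least 2-fold higher. Their median log2 difference was -0.51, and -0.18 over all listed genes without a filter. WRKY transcription factor 4 (Csa3G710870) had 22.5 FPKM at day 6, against 294 FPKM at day 3, and 290 FPKM at day 9. WRKY transcription factor 1 (Csa1G025960) had 12.8 FPKM at day 6 and 68.6 FPKM at day 3. The 122 ethylene genes had 32 members (26.2%) at least 2-fold lower and 2 (1.64%) higher, led by response factors. Ethylene-responsive transcription factor Csa6G017030 had 1.90 FPKM at day 6, against 60.7 FPKM at day 3, and the ACC oxidase Csa6G421630, which makes ethylene, had 22.8 FPKM at day 6 and 148 FPKM at day 3.

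Members of 3 other regulator families were also more often lower than higher. MYB factors had 23 of 101 members at least 2-fold lower and 5 higher, NAC factors 9 of 48 lower and 2 higher, and receptor-like kinases 47 of 393 lower and 10 higher. MYB transcription factor Csa6G491690 had 9.06 FPKM at day 6 and 88.7 FPKM at day 3, and NAC domain-containing protein Csa6G382950 had 3.14 FPKM at day 6 and 37.6 FPKM at day 3. Both stood near their day 3 level again at day 9, with 89.7 and 34.5 FPKM. Phi-1-like phosphate-induced protein Csa4G110050 had 18.9 FPKM at day 6 and 249 FPKM at day 3, with 227 FPKM at day 9.

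At the entry to phenylpropanoid metabolism, the route to lignin, flavonoids and other phenolic compounds, more genes were lower than higher at day 6. Of 32 such genes, 16 were at least 2-fold lower and 2 higher, and their FPKM summed to 178 at day 6, against 482 at day 3. Their median log2 difference of -1.14 was -0.38 over all listed genes, -1.98 with at least 5 FPKM, and -1.95 and -0.51 at pseudocounts of 0.1 and 5 FPKM. Phenylalanine ammonia-lyase, the first enzyme of the route, had 15 genes described, of which 10 were at least 2-fold lower and 0 higher, with sums of 52.9 FPKM at day 6 and 292 FPKM at day 3. Phenylalanine ammonia-lyase Csa4G008250 had 4.84 FPKM at day 6 and 79.2 FPKM at day 3, and Csa6G445780 had 4.63 FPKM at day 6 and 54.7 FPKM at day 3. Cinnamate 4-hydroxylases, the next enzyme, had 3 of 5 genes at least 2-fold lower, but the most abundant, Csa6G133710, had 33.2 FPKM at day 6 and 43.4 FPKM at day 3. The third step, 4-coumarate-CoA ligase, had a median of 0.16 over 12 genes, with 2 at least 2-fold higher and 3 lower. These 3 lists of single steps were formed after the values were seen.

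Upstream and downstream of that entry the differences were smaller. The 26 shikimate pathway genes, which supply phenylalanine, had 4 members at least 2-fold lower and 0 higher, among them Prephenate dehydratase Csa1G145980 with 7.01 FPKM at day 6 and 74.5 FPKM at day 3. Of 41 lignin and monolignol genes, 7 were at least 2-fold lower and 5 higher, and at 4-fold 3 were lower and 0 higher. Cinnamoyl-CoA reductase Csa5G524780, which commits to lignin, had 4.61 FPKM at day 6 and 52.9 FPKM at day 3, whereas Laccase-2 (Csa3G175700), which polymerises it, had 20.3 FPKM at day 6 and 9.09 FPKM at day 3. The 23 flavonoid genes had 3 members at least 2-fold lower and 2 higher. Chalcone synthase Csa3G600020, the first flavonoid enzyme, had 5.28 FPKM at day 6 and 11.9 FPKM at day 3.

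Part of the genes of mitosis and of entry into the cell cycle were lower at day 6, while those of DNA replication and the histones differed by less than 2-fold. Kinesins and other spindle genes had 26 of 93 members at least 2-fold lower and 0 higher, with a median log2 difference of -0.56, which was -0.33 at a pseudocount of 5 FPKM. Kinesin related protein Csa3G062600 had 11.5 FPKM at day 6 and 34.6 FPKM at day 3, and Cyclin dependent kinase B2 (Csa4G664480), a mitotic kinase, had 21.6 FPKM at day 6 and 62.9 FPKM at day 3. D-type cyclins, which couple growth signals to cell division, had 7 of 15 genes at least 2-fold lower and 0 higher in a list formed after the values were seen. Cyclin D3-1 (Csa3G199660) had 19.0 FPKM at day 6, against 85.4 FPKM at day 3, and 7.78 FPKM at day 9. Of 64 DNA replication genes and 32 histone genes, 0 differed by 2-fold in either direction, with medians of 0.02 and -0.08. Ribonucleoside-diphosphate reductase small chain Csa3G597320, which makes deoxynucleotides, had 137 FPKM at day 6 and 93.8 FPKM at day 3.

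As a group growth-regulating factors were lower too, while gibberellin genes differed in both directions. Growth-regulating factors, which sustain cell proliferation in young organs, had 5 of 8 members at least 2-fold lower and 0 higher, with a median of -1.36, which was -0.67 at a pseudocount of 5 FPKM. Growth-regulating factor 1 (Csa6G496380) had 7.80 FPKM at day 6 and 27.5 FPKM at day 3. DELLA protein GAI (Csa3G043910), a repressor of gibberellin responses, had 10.6 FPKM at day 6 and 43.6 FPKM at day 3. Gibberellin genes as a list had 4 of 30 members at least 2-fold higher and 6 lower.

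**Figure D3:**
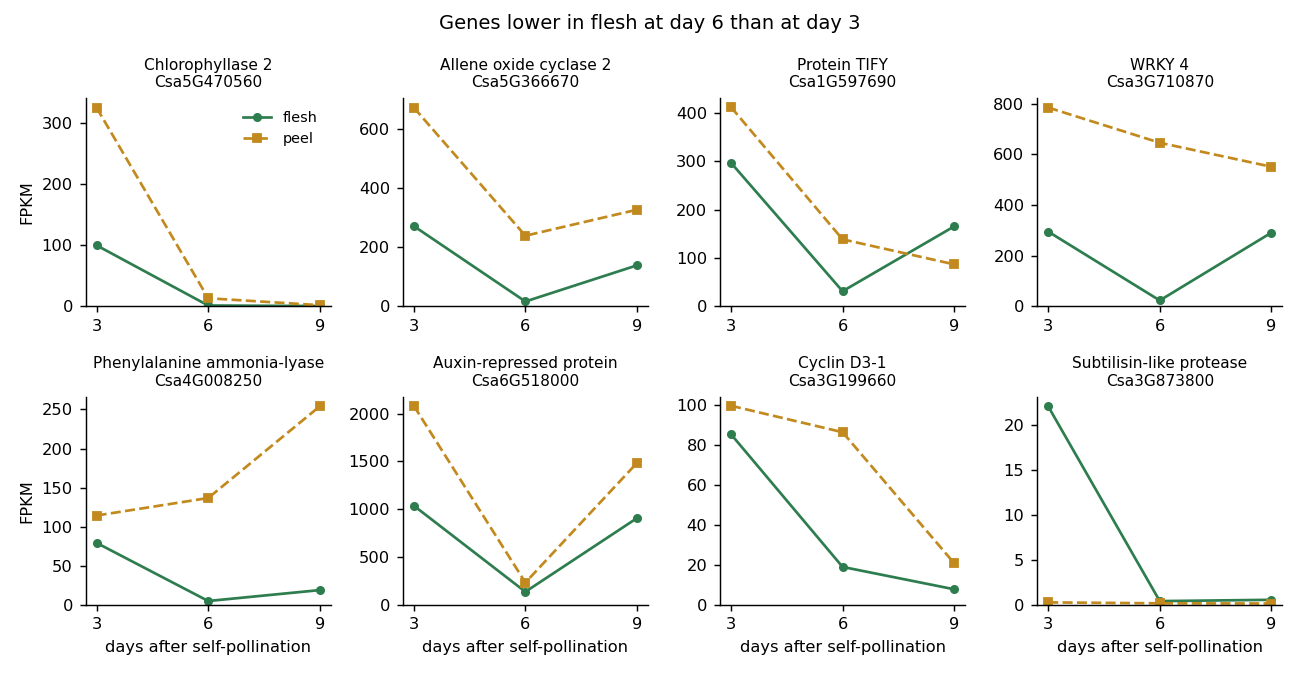
FPKM of 8 genes that were lower in flesh at day 6 than at day 3, against days after self-pollination, with 1 point per library (solid line, flesh; dashed line, peel). WRKY 4, Protein TIFY, the allene oxide cyclase and the auxin-repressed gene had their lowest flesh value at day 6, with a higher value at day 9, while Chlorophyllase 2 and Cyclin D3-1 were lower still at day 9.

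**Figure D4:**
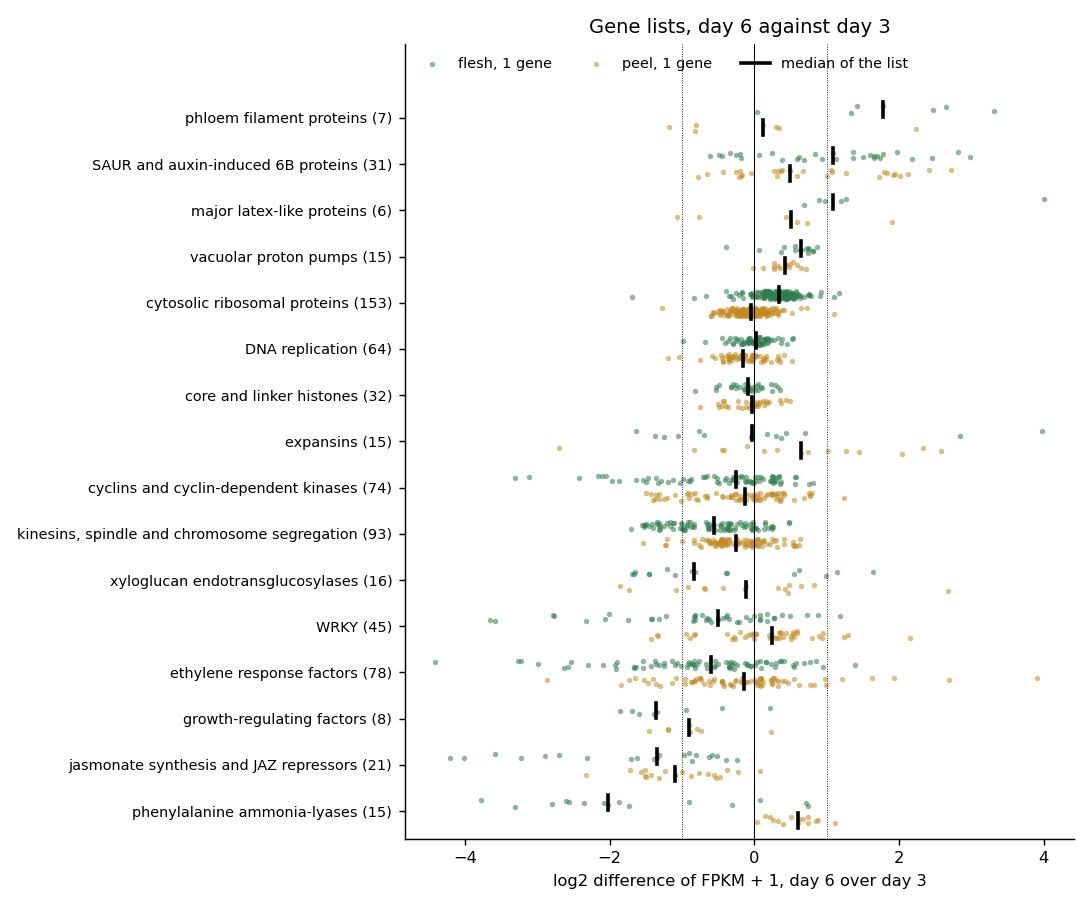
Log2 difference of FPKM + 1 between day 6 and day 3 for the genes of 16 lists (number of genes in brackets), in flesh (green, upper row of each list) and in peel (yellow, lower row). Each point is 1 gene, black bars are list medians and dotted lines mark 2-fold; phenylalanine ammonia-lyases had a median of -2.02 in flesh and 0.60 in peel.

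The peel libraries of the same days, which share no library with the flesh comparison, were then read for the same genes. In peel, 559 (3.27%) of the 17097 genes reached 2-fold higher and 983 (5.75%) reached 2-fold lower at day 6 than at day 3, and 94 (0.55%) and 141 (0.825%) reached 4-fold. Among the 101 genes at least 4-fold higher in flesh, 40 (39.6%) reached 2-fold higher and 18 (17.8%) 4-fold higher in peel as well, and 3 (2.97%) reached 2-fold lower there. Among the 268 genes at least 4-fold lower in flesh, 108 (40.3%) reached 2-fold lower and 43 (16.0%) 4-fold lower in peel as well, and 8 (2.99%) reached 2-fold higher there. Most of the others were within 2-fold in peel, 58 of the 101 and 152 of the 268. The difference between the tissues was not tested, since each tissue and day had 1 library.

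Some groups had medians of one sign in both tissues and others had opposite signs. Chlorophyllase 2 (Csa5G470560) had 12.9 FPKM at day 6 and 325 FPKM at day 3 in peel, and the jasmonate list had a median of -1.09 in peel beside -1.35 in flesh. D-type cyclins had medians of -0.89 in flesh and -0.92 in peel. The SAUR and auxin-induced 6B list had medians of 1.09 in flesh and 0.50 in peel, where 13 of 31 members were at least 2-fold higher and 0 lower. By contrast the phenylpropanoid entry list had medians of -1.14 in flesh and 0.31 in peel, and Phenylalanine ammonia-lyase Csa4G008250 had 137 FPKM at day 6 and 114 FPKM at day 3 in peel. WRKY factors had medians of -0.51 in flesh and 0.25 in peel, and phloem and vascular genes 0.60 in flesh (0.38 without a filter) and -0.30 in peel. The phloem filament proteins, a list formed after the values were seen, had medians of 1.78 in flesh and 0.12 in peel. Aquaporins, the water channels, had medians of 0.09 in flesh and -0.94 in peel over 23 genes. The flesh median was close to no difference, with 12 genes above 0 and 11 below. At 2-fold, 1 was higher and 4 lower in flesh, and 0 were higher and 10 lower in peel, so no opposite direction is shown for them.

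In flesh at day 9 the levels of both sets departed from day 6 in different ways. The 101 genes had median levels of 2.52, 20.6 and 17.9 FPKM at days 3, 6 and 9 of flesh. The 268 genes had medians of 23.1, 2.53 and 7.44 FPKM over the same days. Of the 268 genes, 66 stood at or above their day 3 level at day 9, 123 lay between their day 6 and day 3 levels, and 79 stood at or below their day 6 level. Of all 17097 genes, 8241 stood at or above their day 3 level, 3563 lay between the levels of both days, and 9000 stood at or below their day 6 level. The counts over all genes overlap, since a gene higher at day 6 than at day 3 can meet both the first and the last condition. They therefore give no background share for the 268. Both the day 3 and the day 6 values were used to choose the sets, so genes with a low value at day 6 would tend to lie above it at day 9 by the choice alone, and these counts are given as a description.

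Many of the genes lower at day 6 in flesh had higher levels in peel. At day 9, peel exceeded flesh by 2-fold or more in 136 of the 268 (50.7%), against 2003 (11.7%) of all genes described, and flesh exceeded peel by as much in 31 (11.6%), against 13.8% of all. Leaving out the genes in which peel exceeded flesh by 2-fold at day 9, 132 genes were at least 4-fold lower in flesh. Cuticle and wax genes, the markers of peel, had 2 of 10 members at least 2-fold lower, and all 21 listed summed to 92.9 FPKM at day 6 and 162 FPKM at day 3. Most of that sum was 3-ketoacyl-CoA synthase Csa1G418240, with 49.2 FPKM at day 6 and 114 FPKM at day 3, and the other 20 summed to 43.7 FPKM at day 6 and 48.2 FPKM at day 3. Of the 10 members described, 8 had negative log2 differences, with a median of -0.47. Without Csa1G418240, 7 of 9 did, with a median of -0.46 for the 9. The median of the 10 depended on the processing, with -0.195 for all listed genes and -0.196 at a pseudocount of 5 FPKM. Chosen after their values were seen, the 3-ketoacyl-CoA synthase genes Csa1G501850 and Csa3G144140, with 26.5 to 61.7 FPKM in the peel libraries, were under 1 FPKM in flesh at both days, with 0.0408 and 0.404 FPKM at day 6 and 0.154 and 0.698 FPKM at day 3. Both values were lower at day 6, but at under 1 FPKM their direction is uncertain, and most of the difference of the list sum was that of Csa1G418240. The part of peel tissue in the flesh values was not tested. Of the cuticle list, 3 genes had 0 reads at day 6 and 3 at day 3.

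The remaining marker lists differed little between the flesh libraries. Photosynthesis genes summed to 3940 FPKM at day 6 and 4207 FPKM at day 3, with 1 of 53 at least 2-fold higher and 2 lower. Heat shock and chaperone genes, which can respond to handling, summed to 4801 FPKM at day 6 and 4952 FPKM at day 3. Of 152 such genes, 2 (1.32%) were at least 2-fold higher and 8 (5.26%) lower, both under the shares of all genes (4.14% and 7.26%). Apart from the phloem list, no marker list differed by 2-fold in its sum between the flesh libraries.

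**Figure D5:**
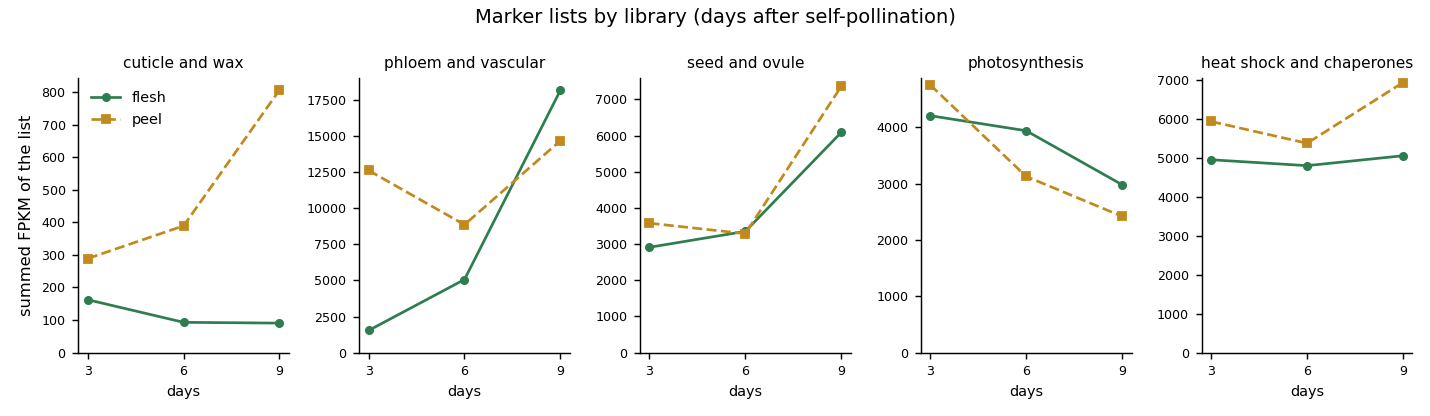
Summed FPKM of 5 marker lists against days after self-pollination, with 1 point per library (solid line, flesh; dashed line, peel; each panel has its own axis from 0). In flesh the phloem and vascular sum climbed over the 3 days (1535, 5064 and 18166 FPKM), while the cuticle and wax sum did not (162, 92.9 and 90.5 FPKM).

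Some genes past 4-fold were neighbours of others. Of the 101 genes at least 4-fold higher, 10 (9.90%) had a gene of the same set as their next neighbour in the table, and of the 265 genes at least 4-fold lower that lay on chromosomes, 38 (14.3%) did. The largest run held 5 phenylalanine ammonia-lyases on chromosome 4 between positions 1356382 and 1371474 of the table. A run of 3 lay on chromosome 6 between 20844757 and 20854812, and 3 cinnamate 4-hydroxylases lay on chromosome 2 between 5328496 and 5336966. Pairs of phloem filament proteins and of thioredoxins were among the genes that were higher. The likeness of their sequences was not measured here; where it is high, reads may be shared and single values are uncertain.

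The 4-fold counts include genes with few reads. Of the genes past 4-fold, 52 had fewer than 50 reads in the higher library, and 16 of the higher and 32 of the lower genes had 0 reads in the other library. An exact 95% counting interval of the ratio lay beyond 2-fold for 90 of the 101 and for 243 of the 268. Rapid alkalinization factor Csa6G484570, a small peptide signal, had 0 reads at day 6 and 171 reads (12.5 FPKM) at day 3, at least 54.5-fold lower against a floor of 3 reads. Just inside the 4-fold bound stood Protein phosphatase 2c Csa4G625030, with 12.3 FPKM at day 6 and 2.32 FPKM at day 3, and Reticuline oxidase Csa6G525670, with 18.1 FPKM at day 6 and 75.7 FPKM at day 3. Just outside it stood Defensin protein 1 (Csa5G114570), with a log2 difference of 1.99, and Harpin-induced protein-related-like Csa1G601000, with -1.99.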

How the data were processed

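RNA was extracted from peel and flesh dissected from the same line, with 3 fruits mixed in each library, per the labels' protocols. The submitters' processing notes list TopHat and Cufflinks 2.1.1. No build, annotation or strand setting is stated in the labels or headers. Per the file headers, the deposited values are FPKM for every gene in every library, and the authors' scaling of them was kept. A further set of deposited columns, headed as counts, held values that were not whole and was treated as a scaled signal. Dividing them by each library's smallest step gave whole reads for 99.8% to 100.0% of values (within 0.05), which served for depth, for exact 95% counting intervals and for floors of 3 reads. No column of the table was left unused.

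Log2 differences used a pseudocount of 1 FPKM and genes with at least 1 FPKM in either flesh library. With 1 library per group no test was possible, so genes were counted at 4-fold and members of 50 lists of product names at 2-fold (Python 3.11.15, pandas 2.3.3, numpy 2.4.6, scipy 1.17.1). Counting was tested on simulated data with counting error alone and changes larger than 4-fold in genes with many reads. That test does not cover genes with few reads, changes near the bound or variation between fruits. Named genes were the 15 largest differences in each direction with at least 5 FPKM and a product name, the 10 largest absolute differences, up to 4 members of each list past 2-fold with the highest FPKM or else the most abundant, and those beside the 4-fold bound; the text prints the ones its account turns on. Members and lists were chosen with earlier results of these data known. Added after values were seen were 10 lists and the genes Csa1G001300, Csa2G196890, Csa2G258100, Csa1G595890, Csa2G360780, Csa6G133710, Csa6G484570, Csa1G501850 and Csa3G144140. Alternatives were pseudocounts of 0.1 and 5, no filter, a minimum of 5 FPKM, upper-quartile and median-ratio rescaling, the count columns put on each gene's length scale, and removal of the 1023 genes sharing a deposited locus; a minimum of 50 reads and removal of genes higher in peel at day 9 were added after seeing the data. Gene names are those of the table, and no sequence is shown.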

Additional observations from a re-analysis of the deposited data

Results flagged for a closer look

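Several results ran in opposite directions in the 2 tissues between day 6 and day 3, and none of these differences between tissues was tested. The phenylpropanoid entry list had a median log2 difference of -1.14 in flesh and 0.31 in peel. The phloem and vascular list had 0.60 in flesh and -0.30 in peel. The opposite signs did not hold for its phloem filament proteins, with medians of 1.78 in flesh and 0.12 in peel. Their peel sum was nevertheless lower at day 6, with 7294 FPKM against 10741 FPKM at day 3. At least 4-fold lower in flesh and at least 4-fold higher in peel were 3 genes, Csa1G600960, Csa3G850560 and Csa5G140520, all unknown proteins with 4 reads or fewer in each of these 4 libraries, while 0 genes were at least 4-fold higher in flesh and 4-fold lower in peel.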

How the results depend on the processing

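The counts of genes past 4-fold depend on the pseudocount. At 0.1 FPKM they were 258 higher and 553 lower, with 215 of the lower ones also at least 2-fold lower in peel. At 5 FPKM they were 29 higher and 95 lower, with 36 also lower in peel, and all of these genes were among the 101 and 268. Of the 50 lists, those with a median of at least 0.5 in size numbered 8, against 4 at a pseudocount of 5 and 3 with no filter. The 10 lists formed after values were seen, among them the SAUR, jasmonate, phenylalanine ammonia-lyase and D-type cyclin lists, were not put through the alternatives. Without the genes in which peel exceeded flesh by 2-fold at day 9, chosen after seeing the data, 132 genes were lower and 81 higher, so that 38.0% of the genes past 4-fold were higher, against 27.4% in all; with the other settings the share was between 23.4% and 31.8%. Under the remaining alternatives the 4-fold counts were between 83 and 104 higher and between 234 and 291 lower. Over the scalings the median of all genes was between -0.03 and 0.02. The alternatives gave 383 values for 48 genes chosen for their large differences. They also gave 135 values for the 17 lists with a median of at least 0.25 in size. Of these values 0 changed sign, which was largely fixed in advance for genes, since a pseudocount or filter cannot change the sign of a gene's difference. However, 53 gene values left their counting interval and 17 of the list median values moved by more than 0.25. No paired analysis was possible because each tissue and day had 1 library. With 1 mixed library of 3 fruits, variation between fruits, harvest or library preparation cannot be told apart from the day, and depth limits the genes with few reads.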

Other observations

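Genes found almost only in 1 library were listed after seeing the data, as those with at least 5 FPKM and 50 reads there and at most 1 part in 10 of that level in each other library. Flesh at day 6 had 2 such genes, flesh at day 3 had 5, and peel at day 9 had 117. Those of day 6 flesh were the nucellus gene Csa6G109680 and the unknown protein Csa2G077550, with 25.4 FPKM at day 6, 2.52 FPKM at day 3 and 0 in the other 4 libraries. Those of day 3 flesh all had a product name. Subtilisin-like serine protease Csa3G873800, of a family that processes secreted proteins, had 0.409 FPKM at day 6 and 22.0 FPKM at day 3, and at most 0.553 FPKM elsewhere. The SUPERMAN-like zinc finger gene Csa3G141870, whose Arabidopsis relative sets the border of flower organs, had 0.382 FPKM at day 6 and 11.5 FPKM at day 3, and 0 in the other 4 libraries. Pectinesterase Csa1G597780, which removes methyl groups from pectin, had 0.419 FPKM at day 6 and 10.3 FPKM at day 3. Galactosyltransferase Csa5G647250 had 0.0672 FPKM at day 6 and 5.11 FPKM at day 3. The fifth was the rapid alkalinization factor gene, with reads in the day 3 flesh library alone.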
